A study of Ovis aries and Mus musculus with 20 samples.

Results

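The transcriptomes of mesenteric adipose tissue (MAD) and retroperitoneal adipose tissue (RAD) of sheep were compared by rRNA-depleted RNA-seq. The comparison took the 3 MAD and 3 RAD libraries, 6 of the 20 samples of the study and 6 of its 9 RNA-seq libraries, by their labels. All came from adult female Small-tail Han sheep of 2 years, with no treatment or genetic change, and sheep 1, 2 and 3 each gave both depots, so that every MAD library has a RAD library of the same animal. Each library was made from pieces of whole fat tissue of 1 sheep. The same sheep also gave the greater omentum (GOM), whose 3 RNA-seq libraries entered the model and are shown beside MAD and RAD. The other samples of the study are Hi-C libraries and were not used here.

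MAD lies in the mesentery that carries vessels and lymphatics to the intestine, and its venous blood drains through the portal vein to the liver. RAD lies behind the peritoneum beside the kidneys, outside the portal drainage, and is a large store of lipid in ruminants. Both are visceral white fat, in which adipocytes share the tissue with progenitors, endothelium, mesothelium and immune cells, so RNA from a piece of fat is a mixture. In such bulk samples, fewer cells of a type and less RNA per cell cannot be told apart. Genes are known here only by Ensembl identifiers, which the files do not pair with names, and none of the identifiers could be matched to the reference table of sheep genes. The markers of adipocytes and of other cell types could therefore not be looked up, and the depot labels could not be checked against them. Genes are described below by direction, level, size of change and consistency between sheep, and the 2 with the largest change in each direction are given by identifier.

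The libraries were of similar depth. The sum of estimated counts was 19966047, 14305713 and 19624608 in MAD and 17852676, 16564395 and 16563898 in RAD for sheep 1, 2 and 3. MAD libraries had 13032 to 13800 genes at a TPM (a level scaled to transcript length and to a fixed total per library) of at least 1 and RAD libraries 12944 to 13551, with overlapping ranges. The 100 most abundant genes of a library took 36.6 to 40.5% of its TPM in MAD and 35.8 to 41.3% in RAD, which also overlap. No replicate of a depot was a copy of another, since no gene with an estimated count of 10 or more had the same value in both members of any pair. Estimated counts are not whole numbers, so this would not reveal a library that was sequenced again.

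Most genes called between the depots were higher in RAD. Of 14565 genes tested, 384 differed at an adjusted *p* below 0.05 by the quasi-likelihood test of edgeR with Benjamini-Hochberg adjustment (2.64% of genes), and 336 of these were higher in RAD (2.31%) and 48 higher in MAD (0.33%). With the sheep as a block in the same edgeR model, 659 genes passed (4.52%), 489 of them higher in RAD (3.36%) and 170 higher in MAD (1.17%). The share of calls higher in RAD was 74.2% with the block and 87.5% without it. By DESeq2 without the block, 943 of 14524 genes passed (6.49%), 692 higher in RAD (4.76%) and 251 higher in MAD (1.73%), so that 73.4% of its calls were higher in RAD. All 384 genes were called by DESeq2 in the same direction, and 382 of them by the block model. The median log2 fold change over all genes tested was -0.03, a value that TMM normalization holds near 0, so changes are relative to the bulk of genes.

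**Figure D1:**
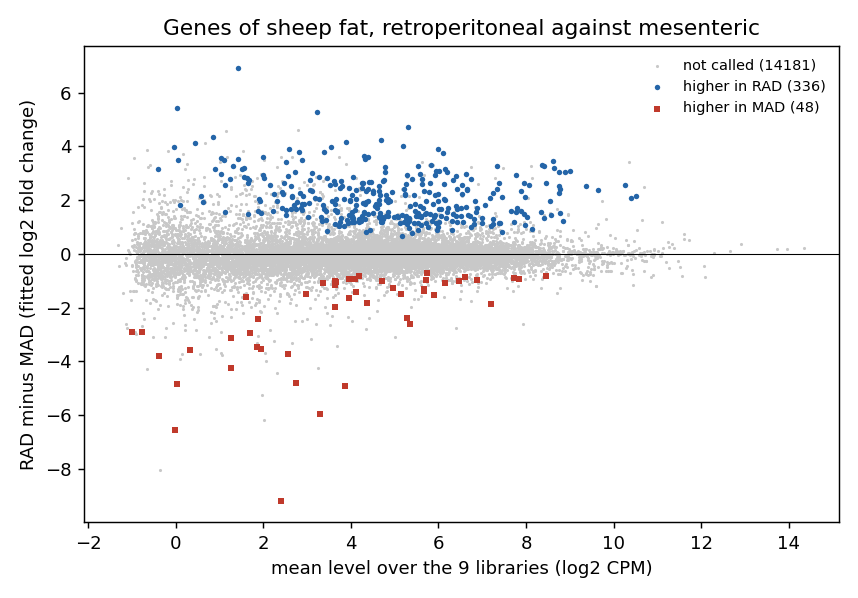
Fitted log2 fold change of RAD over MAD against the mean level over the 9 libraries (log2 CPM), 1 point per gene tested. The 336 genes called higher in RAD (blue circles) and the 48 called higher in MAD (red squares) lie over a wide range of levels. Grey points are the genes that were not called.

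Genes higher in RAD typically changed about 4-fold. Their fitted log2 fold changes ran from 0.68 to 6.94 with a median of 1.95, and the middle of the distribution lay between 1.41 and 2.63 (lower and upper quartile). The median standard error of a change was 0.31. Of these 336 genes, 14 changed by less than 2-fold, 165 by 2-fold to 4-fold, and 157 by more than 4-fold, including 9 by more than 16-fold. The 48 genes higher in MAD had a median absolute log2 fold change of 1.57 but a wider spread, from 0.72 to 9.18, with quartiles at 1.01 and 3.20. Of these 48, 11 changed by less than 2-fold, 19 by more than 4-fold and 7 by more than 16-fold. Over all genes tested the median absolute change was 0.24, and 13216 of 14565 changed by less than 2-fold. Called genes were chosen on the same libraries from which their folds were estimated, which favours large estimates.

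Both RAD-higher and MAD-higher genes were found at every level of expression. Genes were divided into 5 classes of 2913 by their mean log2 CPM (a count scaled to the depth of its library). In the lowest class, below a mean log2 CPM of 2.13, 33 genes were higher in RAD and 13 in MAD. In the next 3 classes 69, 78 and 73 genes were higher in RAD and 11, 8 and 9 in MAD. In the highest class, from a mean log2 CPM of 6.16, 83 were higher in RAD and 7 in MAD. The share of genes called was 1.58% in the lowest class and 2.75 to 3.09% in the others. The median standard error was 0.53 in the lowest class and 0.21 to 0.30 in the others. The smallest change that the edgeR test called in the lowest class was 2.83-fold, so no change of 2-fold was called there.

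The most abundant genes of the tissue differed little. Among the 100 genes with the highest mean TPM over the 6 libraries, the edgeR test called 0, 3 had an unadjusted *p* under 0.05 (2 higher in RAD, 1 in MAD), and DESeq2 called 2 (1 in each direction). The block model called 0 of them. Their median absolute log2 fold change was 0.09, and none reached 2-fold. Among the 1000 most abundant genes, 27 were called higher in RAD and 0 higher in MAD by the edgeR test. In that direction 11 genes were called with the block and 8 by DESeq2, so an absence of abundant genes higher in MAD cannot be stated. By the edgeR test 31 of the 1000 had an unadjusted *p* under 0.05 toward MAD and 74 toward RAD. Over all genes tested, 1979 of 14565 (13.6%) had such a *p* in either direction. The share of genes called among these 1000 was 2.7%, near the 2.64% of all genes.

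Together the RAD-higher genes made up a small part of the RNA pool that was several times larger in RAD. They took 2.99, 2.59 and 2.39% of TPM in RAD of sheep 1, 2 and 3, and 0.722, 0.526 and 0.672% in MAD of the same sheep. In GOM they took 2.40, 4.08 and 2.98%. Each RAD library thus lay above each MAD library, and the GOM libraries lay with RAD or above it. The MAD-higher genes took 0.145, 0.115 and 0.109% of TPM in MAD, 0.0385, 0.0492 and 0.0503% in RAD and 0.0697, 0.0452 and 0.0559% in GOM. Both groups were chosen for their difference between MAD and RAD, so these sums are a description and not a test.

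**Figure D2:**
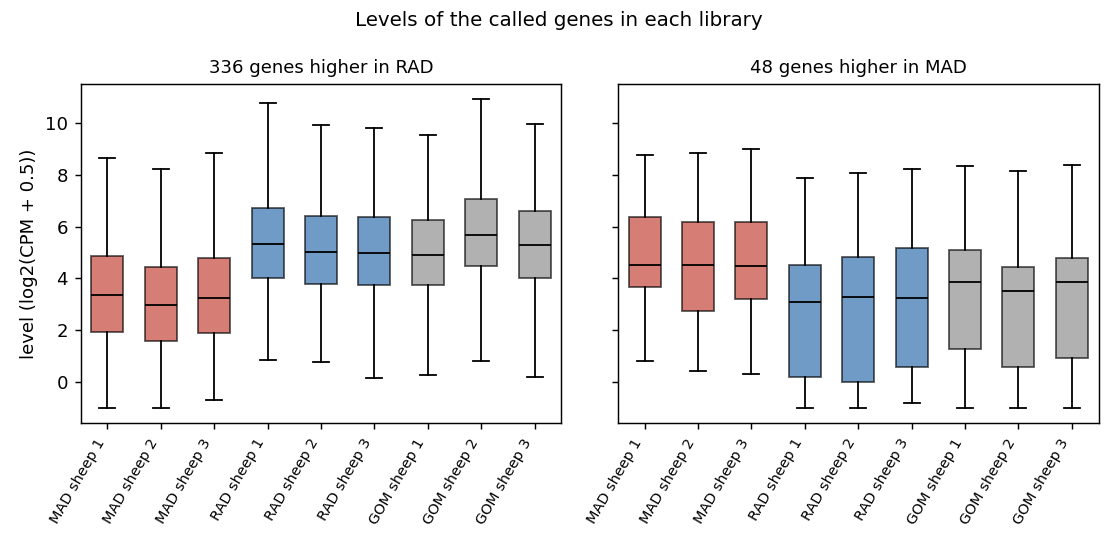
Levels (log2(CPM + 0.5)) of the 336 genes called higher in RAD (left) and the 48 called higher in MAD (right) in each library, with boxes from the lower to the upper quartile, the median as a line and whiskers to the last gene within the usual limit of the box plot. For the RAD-higher genes the medians are 2.99 to 3.37 in MAD, 4.98 to 5.33 in RAD and 4.89 to 5.67 in GOM.

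The omental fat of the same animals, whose levels were not part of the contrast, lay on the side of RAD for most of them. For 332 of the 336 RAD-higher genes the mean log2 level in GOM was nearer to RAD than to MAD, and for 283 it lay beyond that of RAD. For the 48 MAD-higher genes GOM was nearer to RAD in 40, but it lay between MAD and RAD in 38. Over all 14565 genes tested, GOM was nearer to RAD for 10776, beyond RAD for 8265 and between MAD and RAD for 3827. The 3 GOM libraries did not overlap with the 3 MAD libraries in 332 of the RAD-higher and 44 of the MAD-higher genes, against 3407 of all 14565 (23.4%). They did not overlap with the RAD libraries in 15 and 19, against 914 of all genes (6.28%). The genes were chosen for MAD libraries that lay apart from RAD, and the same MAD libraries are set against GOM here, so these counts are a description. GOM stood nearer to MAD for 4 of the RAD-higher and 8 of the MAD-higher genes, and in these RAD was the more distant depot.

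Few genes were near absent in a depot and present in the other. Among genes tested, 14 had less than 0.5 CPM in all 3 MAD libraries and at least 1 CPM in all 3 RAD libraries, and 11 of these were among the called genes. GOM had at least 1 CPM in all 3 libraries for 8 of these 14 and less than 0.5 CPM in all 3 for 2. The reverse pattern, near absent in RAD and present in MAD, was found for 12 genes, of which 5 were called. Over all genes tested, 2.64% were called. Both patterns set the MAD and RAD libraries apart by definition, which favours a call. Such genes can also pass the filter on low counts through the depot where they are high, so the counts of calls are a description. GOM was near absent for 6 of these 12 and present for 1. By contrast, 12486 of the 14565 genes tested had at least 1 CPM in all 6 libraries, so most genes tested were present in both depots.

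ENSOARG00020007379 had the largest change toward RAD and was near absent in the other depots. Its level was 8.17, 7.16 and 7.36 CPM in RAD of sheep 1, 2 and 3, and 0.0474, 0 and 0.111 CPM in MAD. The RAD libraries were alike and lay far above every MAD library. On the scale that allows comparison between genes, it was at a TPM of 6.81, 6.83 and 7.07 in RAD. GOM was at 0.0581, 0.0945 and 0.315 CPM, so this gene separated RAD from both other depots. The fitted log2 fold change of RAD over MAD was 6.94 (standard error 0.70, adjusted *p* = 0.00710, edgeR). Because MAD had only 3 counts in all against 388 in RAD, the fold is known only roughly, with a ratio of 137 and a 95% interval for counting error (exact, Clopper-Pearson) of 46.6 to 667.

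ENSOARG00020015425, the next largest toward RAD, was low in all libraries and less even. Its level was 1.51, 5.36 and 1.04 CPM in RAD and 0.0474, 0 and 0.111 CPM in MAD. RAD of sheep 2 was the highest, and RAD of sheep 3 the lowest of its depot but still above every MAD library. GOM was at 0, 0 and 0.189 CPM. The fitted log2 fold change was 5.42 (standard error 1.15, adjusted *p* = 0.0415 from edgeR), and the ratio of 138 counts in RAD to 3 in MAD was 48.7 with a 95% counting interval of 16.3 to 239. This call was near the threshold. Leaving out 1 of the 6 libraries gave an adjusted *p* of 0.0493 to 0.157 from the same edgeR test, and over all alternatives it ranged from 0.000502 to 0.157.

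ENSOARG00020022879 had the largest change of any gene tested, toward MAD. Its level was 15.0, 9.33 and 21.95 CPM in MAD of sheep 1, 2 and 3 and 0, 0 and 0.0614 CPM in RAD. The RAD group held 1 count of this gene and the MAD group 855. The TPM in MAD was 13.0, 7.45 and 14.5, and GOM was at 0, 0.0945 and 0.126 CPM, as low as RAD. Sheep 2 had the lowest level in MAD, and no library of another depot came near it. The log2 fold change from MAD to RAD was -9.18 (standard error 0.82, adjusted *p* = 0.00710 from edgeR), and the ratio of MAD to RAD was 807 with a 95% counting interval of 144 to 31905.

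ENSOARG00020003540 differed in its pattern over the depots. It was at 6.07, 1.51 and 8.31 CPM in MAD and 0.116, 0 and 0.123 CPM in RAD, but highest in GOM with 30.9, 15.6 and 25.0 CPM. The 3 depots did not overlap, and RAD was the one where the gene was near absent. The log2 fold change from MAD to RAD was -5.97 (standard error 0.85, adjusted *p* = 0.00953 from edgeR). The RAD group held 4 counts and the MAD group 301, a ratio of 71.0 with a 95% counting interval of 27.4 to 262. Within each depot sheep 2 was the lowest.

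**Figure D3:**
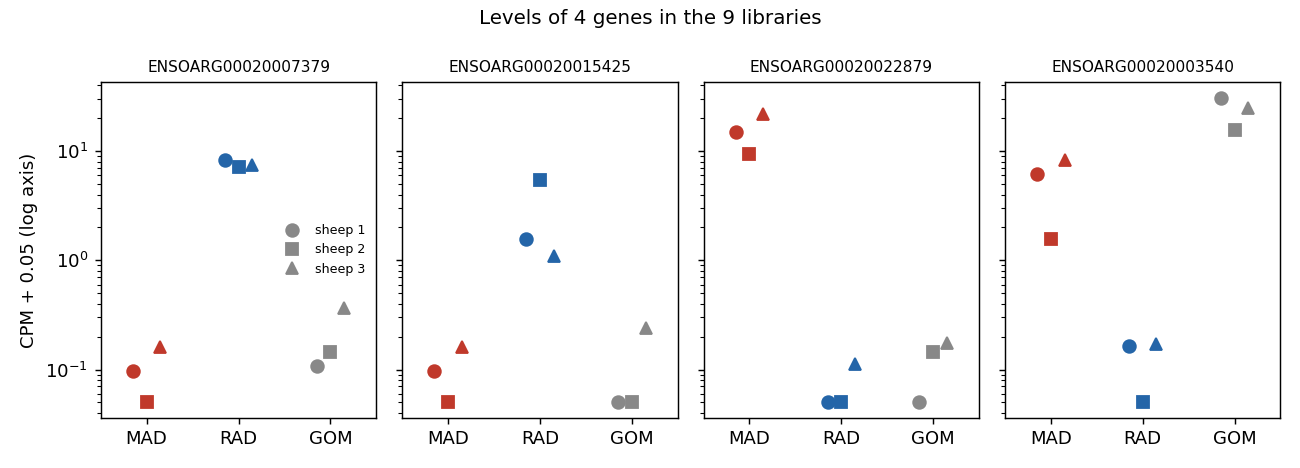
Levels of the 4 genes with the largest changes (CPM + 0.05, log axis) in MAD, RAD and GOM, with 1 point per library and the marker giving the sheep. RAD stands apart from both other depots for ENSOARG00020007379, ENSOARG00020003540 and, at lower levels, ENSOARG00020015425, and MAD does for ENSOARG00020022879.

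The sheep differed in how far their depots lay apart. Within a sheep, the levels of RAD and MAD differed by more than 2-fold (log2 ratio of CPM + 0.5) for 2307 genes in sheep 1, 1264 in sheep 2 and 1330 in sheep 3. Of these, 1000, 849 and 910 were higher in RAD and 1307, 415 and 420 higher in MAD. In sheep 1 more of them thus lay toward MAD, and in sheep 2 and 3 more lay toward RAD. The correlation of log2 levels over genes between the MAD and RAD of a sheep was 0.939, 0.957 and 0.965, and genes are not independent replicates. More than 4-fold higher in RAD were 244, 270 and 131 genes in sheep 1, 2 and 3, and more than 4-fold higher in MAD were 209, 48 and 49. Of the 209 MAD-higher genes of sheep 1, 122 were higher in MAD in both other sheep and 47 were so by more than 2-fold. The same direction in both other sheep was found for 37 of the 48 of sheep 2 and 41 of the 49 of sheep 3. Of the 244 RAD-higher genes of sheep 1, 240 were higher in RAD in both other sheep and 189 by more than 2-fold. For the RAD-higher genes of sheep 2 the direction was shared for 242 of 270, and for those of sheep 3 for 104 of 131. For 126 of those 209 genes RAD of sheep 1 was the lowest of the 9 libraries, and for 118 MAD of sheep 1 was the highest. Choosing genes by the ratio within a sheep favours such extremes of its libraries. Among MAD-higher genes of sheep 2 and 3, RAD was lowest for 21 of 48 and 9 of 49, and MAD highest for 9 and 28. Among RAD-higher genes of sheep 1, 2 and 3, MAD was lowest for 62 of 244, 188 of 270 and 34 of 131. RAD was highest for 41, 27 and 41 of these. Called by the edgeR test were 17 of the 209 and 149 of the 244 genes of sheep 1. In sheep 2 these were 12 of 48 and 144 of 270, and in sheep 3 they were 11 of 49 and 72 of 131. Over all genes tested, 0.33% were called higher in MAD and 2.31% higher in RAD. A large ratio in a sheep favours a call, since its libraries entered the test, so these counts are a description.

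**Figure D4:**
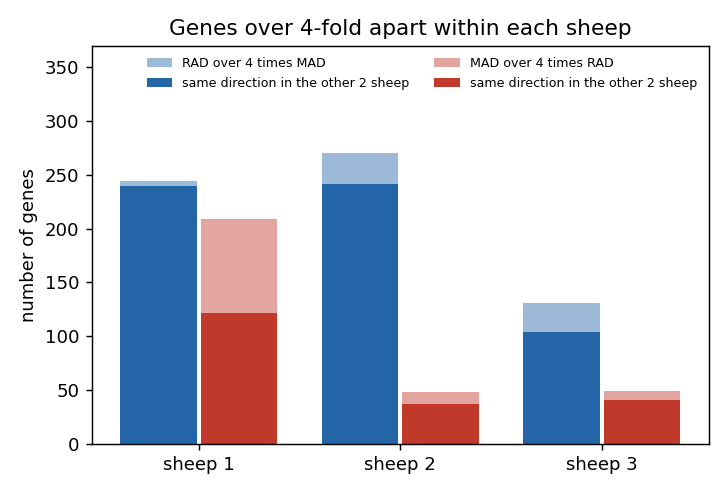
Number of genes more than 4-fold apart between RAD and MAD within each sheep, toward RAD (blue) and toward MAD (red); the dark part of a bar holds the genes with the same direction in the other 2 sheep. Sheep 1 has 209 genes toward MAD, against 48 and 49 in sheep 2 and 3.

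In all 3 sheep at once, 361 of 14565 genes (2.48%) were more than 2-fold higher in RAD and 80 (0.549%) more than 2-fold higher in MAD. Of these 361, 265 were among the called genes, and of the 80, 28 were. The 3 RAD and 3 MAD libraries did not overlap for 2773 genes (19%), of which 1595 (11%) were higher in RAD and 1178 (8.09%) higher in MAD. By sign alone, 2793 genes (19.2%) were higher in RAD in all 3 sheep and 2907 (20%) higher in MAD, a balance that the normalization favours. Among the called RAD-higher genes the median log2 ratio was 1.86, 1.79 and 1.57 in sheep 1, 2 and 3. Sheep 3 had the smallest of the 3 changes for 203 of these 336 genes, against 5595 of all 14565. Among the called MAD-higher genes the medians were -1.64, -1.29 and -1.23.

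For most genes the spread between sheep was larger in MAD than in RAD. Each depot has only 3 libraries and genes are not independent, so a difference in spread between the depots was not tested. The SD of log2 levels over the 3 sheep was larger in MAD for 8649 of 14565 genes, with a median SD of 0.30 in MAD and 0.25 in RAD. Among RAD-higher genes the medians were close (0.29 in MAD and 0.30 in RAD), while among MAD-higher genes MAD was the more variable depot for 36 of 48 (0.27 and 0.20). Some of these 48 genes were near 0 in RAD, where the added 0.5 CPM narrows the SD. Transcript length also differed somewhat between the groups. Relative to the median gene tested, the effective length by which kallisto divides counts to give TPM had a median of 0.884 for RAD-higher genes (quartiles 0.564 and 1.46) and 1.19 for MAD-higher genes (0.798 and 1.65), and their ranges overlapped widely with that of all genes (0.537 to 1.71). Its part in the result was not tested.

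The number of calls fell when any 1 of the 6 libraries was left out, by an amount that differed between libraries. Each omission leaves a depot with fewer libraries, and this loss of replication can by itself lower the number of calls. Without MAD of sheep 1 or 2, or RAD of sheep 1, the same edgeR test called 147, 146 and 118 genes in place of 384. Of these, 134, 131 and 110 were higher in RAD. Without MAD of sheep 3, or RAD of sheep 2 or 3, it called 265, 259 and 280 genes. Calls of MAD-higher genes fell from 48 to 13 and 15 without MAD of sheep 1 and 2 and to 8, 19 and 20 without RAD of sheep 1, 2 and 3, but only to 41 without MAD of sheep 3. Of the 384 genes, 100 (92 higher in RAD and 8 in MAD) were called without each of the 6 libraries in turn. Of these, 97 (90 and 7) were also called by the 9 other alternatives of model, normalization and filter, ENSOARG00020007379 and ENSOARG00020022879 among them. These 90 genes took 0.630 to 0.751% of TPM in RAD and 0.120 to 0.167% in MAD.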

How the data were processed

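For 20477 Ensembl sheep genes the authors deposited TPM and unnormalized estimated counts, made by kallisto (0.43.0 per the submitters' processing notes; the paper's methods name a later version) on transcripts of Oar_rambouillet_v1.0. kallisto shares reads among transcripts, so close paralogs and overlapping genes are uncertain. TPM keeps no depth. Estimated counts were rounded here and tested with edgeR 4.0.16 (R 4.3.3): filterByExpr, TMM, glmQLFit on all 9 RNA-seq libraries by depot (6 residual degrees of freedom), contrast RAD minus MAD, glmQLFTest, Benjamini-Hochberg adjustment over 14565 genes at 0.05. CPM use TMM library sizes, and ratios within a sheep add 0.5 CPM. The model was tested on simulated data that held no effect of the animal, so the pairing by sheep was not covered. Counting intervals are 95% Clopper-Pearson and cover counting error only.

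Libraries with the same sheep number in their labels come from the same animal. Deviations from depot means correlated at 0.155, 0.527 and 0.413 between MAD and RAD of sheep 1, 2 and 3, and at -0.434 to 0.0746 between different sheep. Centring each depot on its 3 libraries pulls the values between different sheep down where those within a sheep are positive. The gap is thus partly built in and is no check of the labels. For MAD of sheep 1 the value with RAD of sheep 2 was 0.0746. The model with the sheep as a block (4 residual degrees of freedom) was an alternative, as were DESeq2 1.42.0, limma 3.58.1 on log2 TPM with a pseudocount of 1 or 0.1, RLE factors, other filters, the 6 libraries alone and leaving out libraries. Python 3.11.15 with numpy 2.4.6, scipy 1.17.1, pandas 2.3.3 and matplotlib 3.10.9 gave summaries and figures.

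Genes to be named were the largest changes per direction among called genes above a mean log2 CPM of 0 with 1 direction in the 3 sheep. Without gene names, only the 2 identifiers per direction were given, from 334 and 44 candidates, and the lists of cell type markers and pathways could not be applied. Genes, lists and comparisons were chosen with earlier results of these data known. Hi-C files were not used here.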

Additional observations from a re-analysis of the deposited data

How the results depend on the processing

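The comparison is of 3 animals. The main p-values rest on the spread between libraries of the same depot, with GOM included. They do not measure how the difference within a sheep varies between sheep, which the model with the block takes up. The excess of RAD-higher over MAD-higher calls was found in every alternative, but its size was not fixed. With the replicate block edgeR called 659 genes, 170 of them higher in MAD, and on the 6 libraries alone with the block 577, 112 of them higher in MAD. DESeq2 called 943 (692 higher in RAD, 251 in MAD). limma on log2(TPM + 1) without a filter called 27 higher in MAD. Leaving out 1 library, those of GOM included, gave 118 to 501 genes, 110 to 435 higher in RAD and 8 to 66 higher in MAD, and the GOM libraries were added as an alternative after seeing the data. Of the named genes, ENSOARG00020007379 and ENSOARG00020022879 passed in 18 of 18 alternatives, ENSOARG00020003540 in 17 of 18 and ENSOARG00020015425 in 9 of 16. None of the 384 genes changed sign in an alternative that tested it. The alternatives for gene lists were not run, because identifiers could not be paired with names. Depth limits low genes, in which a fold rests on a few counts.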
